A study of Mus musculus with 6 samples.

Results

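A set of 10 genes for chemokine and homing receptors was read from a comparison of early T cell progenitors with and without the E proteins E2A and HEB. The genes were taken by symbol: Ccr2, Ccr4, Ccr7, Ccr8, Ccr9, Cxcr3, Cxcr4, Cxcr6, Xcr1 and Gpr15, 10 of the 22609 genes listed. All 10 were measured and tested. The list was chosen with earlier results of these data known. RNA was sequenced from progenitors sorted out of the fetal thymus of C57BL/6 mice, in 6 libraries. The 3 control libraries came from wild-type mice, gated as c-Kit and CD44 positive and as negative for CD25, CD4, CD8 and lineage markers. The 3 double-knockout (dKO) libraries came from E2Afl/flHEBfl/flIL7RCre mice, in which floxed Tcf3 (encoding E2A) and Tcf12 (encoding HEB) are deleted by a Cre recombinase made from the Il7r locus. The dKO cells passed the same gate and were also sorted for YFP, which the control cells were not, so genotype and gate cannot be told apart. Whether separate animals stand behind the libraries of a group is not stated, so p-values speak only of the spread among these libraries and may rest on technical spread alone.

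Chemokine receptors are seven-helix receptors that couple to Gi proteins and steer cells along gradients of small secreted proteins, the chemokines. In T cell development CCR9 (receptor of CCL25), CCR7 (receptor of CCL19 and CCL21) and CXCR4 (receptor of CXCL12) bring progenitors into the thymus and position them there, and CCR7 also guides cells into lymph nodes. CCR2, CCR4, CCR8, CXCR3, CXCR6 and GPR15 are known from lymphocytes and myeloid cells that enter skin, gut, liver, lung and inflamed tissue, and innate lymphoid cells carry several of them. XCR1, the receptor of XCL1, is best known from cross-presenting dendritic cells and belongs to neither group. E proteins bind the E-box, CANNTG, which reads as itself on the other strand.

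Because the deleted factors bind E-boxes, the bases before the start of the receptor genes are shown for 5 of them: 1 that fell (Cxcr4), 1 that did not pass the test (Ccr9) and 3 that rose (Ccr4, Ccr8 and Cxcr6). The sequences are RefSeq's on GRCm38.p6, 5' to 3' on the gene's strand, with E-boxes in capitals, and end before the first annotated exon base. They lie at chr1:128592300-128592549 (minus strand) for Cxcr4, chr9:123766961-123767168 (plus strand) for Ccr9, chr9:114496563-114496794 (minus strand) for Ccr4, chr9:120091883-120092113 (plus strand) for Ccr8 and chr9:123806227-123806474 (plus strand) for Cxcr6. Those of Cxcr4 and Ccr8 lie between annotated genes, those of Ccr9 and Ccr4 in an intron of a longer transcript of the same gene, and that of Cxcr6 in an intron of Fyco1 (GENCODE M21).
Cxcr4: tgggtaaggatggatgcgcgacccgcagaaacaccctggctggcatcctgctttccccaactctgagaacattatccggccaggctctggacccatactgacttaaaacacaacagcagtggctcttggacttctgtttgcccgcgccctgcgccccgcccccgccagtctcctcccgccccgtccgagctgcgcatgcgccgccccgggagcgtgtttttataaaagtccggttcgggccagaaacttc
Ccr9: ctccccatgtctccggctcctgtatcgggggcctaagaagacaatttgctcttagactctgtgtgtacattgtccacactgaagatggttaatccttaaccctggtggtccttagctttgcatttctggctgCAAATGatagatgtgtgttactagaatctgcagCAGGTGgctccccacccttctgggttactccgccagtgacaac
Ccr4: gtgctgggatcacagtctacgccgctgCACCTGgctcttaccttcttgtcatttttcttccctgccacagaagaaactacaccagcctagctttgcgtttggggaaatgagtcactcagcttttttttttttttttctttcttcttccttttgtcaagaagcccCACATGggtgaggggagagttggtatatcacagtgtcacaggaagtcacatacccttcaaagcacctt
Ccr8: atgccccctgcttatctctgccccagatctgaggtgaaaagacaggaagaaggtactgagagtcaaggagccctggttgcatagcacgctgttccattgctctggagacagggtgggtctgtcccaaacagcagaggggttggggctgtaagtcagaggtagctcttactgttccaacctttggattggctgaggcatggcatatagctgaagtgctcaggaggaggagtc
Cxcr6: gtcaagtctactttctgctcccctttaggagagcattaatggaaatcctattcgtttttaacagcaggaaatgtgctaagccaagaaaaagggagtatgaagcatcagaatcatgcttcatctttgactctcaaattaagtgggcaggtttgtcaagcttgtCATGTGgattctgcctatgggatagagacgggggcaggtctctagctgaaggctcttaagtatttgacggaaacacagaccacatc

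The RefSeq windows of 250 bases before the start matched 9 of the 10 genes, Ccr7 being the one without an entry. The letters CANNTG occurred in 7 of these 9 windows, against 66.2% of all 32851 RefSeq windows of the same length. Ccr8, which rose, and Cxcr4, which fell, were the ones without a match. The form CAGGTG or its reverse complement CACCTG occurred in 3 windows (Ccr4, Ccr9 and Cxcr3), against 17.2% of all windows. The form CAGCTG occurred in 0 of the 9 windows, against 13% of all windows. Among the printed sequences, the Ccr9 window held CAAATG and CAGGTG, the last base of the second lying 79 bases before the start. The Ccr4 window held CACCTG and CACATG, ending 217 and 80 bases before the start, and the Cxcr6 window held CATGTG, ending 82 bases before it. Cxcr3 had CACCTG ending 110 bases before its start, in the part of its window after the first annotated exon base. The matches of Ccr2 and Gpr15 also lie in that part of their windows. Windows with and without these letters were thus found among the genes that rose. A match is a description of letters and not of a bound site.

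The authors' deposited table gives 1 mean normalised count for each gene and group, a fold change and a DESeq p-value, and a gene is called higher or lower in dKO here at an adjusted p under 0.05. Both deleted genes fell: Tcf3 went from 8931 to 364, or 4.07% of control, and Tcf12 from 3845 to 562, or 14.6% of control per the authors' deposited table. The group means sum to 22.1 M in control and 23.4 M in dKO. The steps of the low means put the depth of the libraries at about 18.2 to 22.6 M reads in control and 24.3 to 27.0 M in dKO. Since each low mean is a sum of whole reads, the reads of each library could be recovered for genes of low level. Libraries are named by their size factor, 1.024, 0.952 and 0.823 in control and 1.156, 1.075 and 1.038 in dKO, and values per library are given in that order. Which replicate number each one carries is not known. In bulk RNA, fewer cells of a type and less RNA per cell cannot be told apart.

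Of the 10 receptor genes, 8 were higher in dKO, 1 was lower and 1 did not pass. Of all 16241 tested genes, 15.1% were higher and 13.8% lower. Among the 8629 tested genes with a mean within the range of the 10 receptors (205 to 6301 over both groups) 20.8% were higher and 18.9% lower. The 8 of 10 that were higher lie above this background, and the 1 of 10 that was lower does not. The receptors were chosen with earlier results of these data known, so this comparison does not test for an excess. The 6 receptors of peripheral tissue homing all rose, with a median log2 change of 2.92 per the authors' deposited table, against a median of -0.01 over all tested genes. The 3 receptors of thymus and lymph node homing split into 1 higher, 1 lower and 1 that did not pass, with a median log2 change of 0.13 per the authors' deposited table. Summed normalised counts of the peripheral receptors went from 3897 to 31025, a ratio of 7.96, and those of the thymus and lymph node receptors from 2643 to 2603, a ratio of 0.985 per the authors' deposited table.

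**Figure D1:**
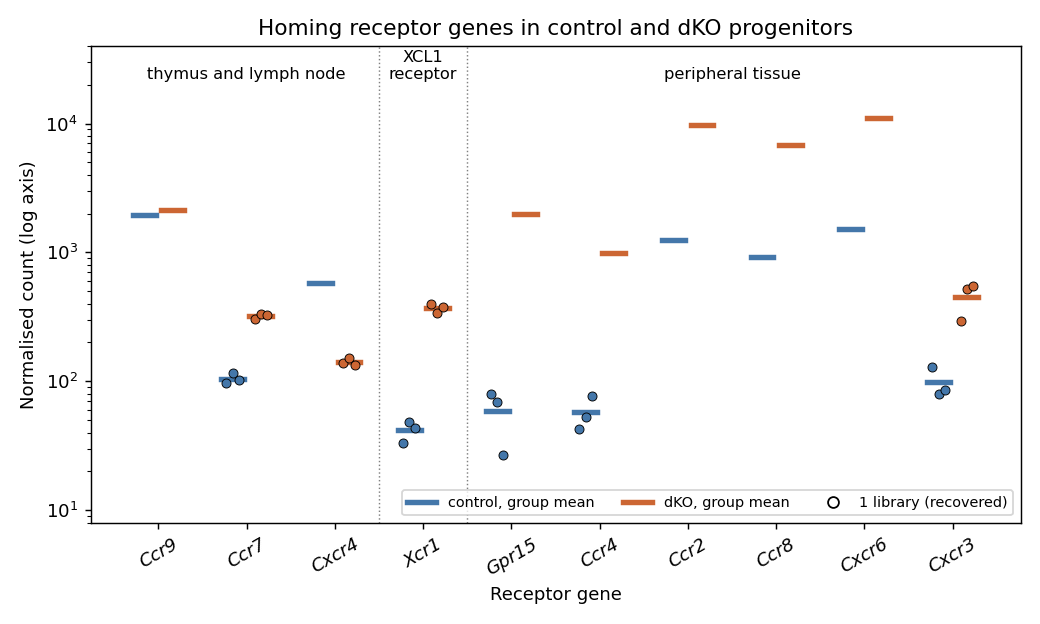
Normalised counts (log axis) of the 10 receptor genes in control (blue) and dKO (orange), with bars for the group means of the authors' deposited table and points for single libraries where the reads could be recovered. The dKO bar lies above the control bar for all 6 peripheral tissue genes and for Xcr1, while Ccr9 is level between the groups and Cxcr4 is lower in dKO.

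Ccr9, the receptor that draws progenitors towards thymic CCL25, was near the same level in both groups. Its mean was 1960 in control and 2140 in dKO per the authors' deposited table, a ratio of 1.09 that did not pass the test (DESeq adjusted p = 0.887). The reads of single libraries could not be recovered at this level. Its gene model overlaps that of Lztfl1 on the opposite strand, and Lztfl1 rose from 931 to 1996 per the authors' deposited table. Whether counting used the strand is not stated, so reads of the shared stretch could have been given to either gene.

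Ccr7, the receptor for lymph node and medullary chemokines, rose. Its control libraries held 96.6, 116 and 102 normalised counts (105 ± 9.72, SD, n = 3) and its dKO libraries 304, 335 and 326 (322 ± 15.5, SD, n = 3). The lowest dKO library was above the highest control library, and the spread within each group was small. The difference was 3.07-fold, or 1.62 on the log2 scale per the authors' deposited table (DESeq adjusted p = 3.92e-07). Leaving out each library in turn gave log2 changes of 1.56 to 1.70.

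Cxcr4, the CXCL12 receptor that early progenitors use at the cortical side of the thymus, was the receptor that fell. Its mean went from 578 in control to 142 in dKO per the authors' deposited table, 4.08-fold lower (DESeq adjusted p = 1.64e-16). The dKO libraries held 139, 152 and 134 normalised counts (142 ± 9.07, SD, n = 3), so no dKO library stood apart. The control mean has 7 solutions in whole reads and its libraries are not given. Leaving out each dKO library in turn gave log2 changes of -2.08 to -1.99.

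Among the peripheral receptors, Cxcr6, Ccr8 and Ccr2 had the highest levels per kilobase of transcript in dKO. Cxcr6, the CXCL16 receptor of liver and lung lymphocytes and of innate lymphoid precursors, had means of 1521 and 11082 per the authors' deposited table, 7.29-fold higher in dKO (DESeq adjusted p = 1.15e-149). Ccr2, the CCL2 receptor that brings monocytes and lymphocytes into inflamed tissue, had means of 1249 and 9733 per the authors' deposited table, 7.80-fold higher (DESeq adjusted p = 7.43e-152). Ccr8, the CCL1 receptor known from skin T cells and type 2 lymphocytes, had means of 914 and 6757 per the authors' deposited table, 7.39-fold higher (DESeq adjusted p = 1.14e-130). These 3 folds lay close together, between 7.29 and 7.80. The means of these genes are too high for reads per library to be recovered. Of the 5679 windows of 50 bases in the Ccr2 transcript, 2.27% also occur in transcripts of other genes, whereas 0% of those of Cxcr6 and Ccr8 do.

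Gpr15, a receptor that homes lymphocytes to the large intestine and skin, had the largest ratio of the 10. Its control libraries held 79.1, 69.3 and 26.7 normalised counts (58.4 ± 27.8, SD, n = 3). The library of size factor 0.823 was the low one. The dKO mean was 2003 per the authors' deposited table, 34.3-fold higher (DESeq adjusted p = 1.65e-13). Leaving out each control library in turn gave ratios of 27.0 to 41.7. The reads of the dKO libraries could not be recovered, so none was left out and the spread behind the dKO mean is not known. Of the 2460 genes called higher, 25 had a larger ratio than Gpr15 per the authors' deposited table. Its transcript shares 9.76% of its windows with that of Cpox, which it overlaps on the opposite strand. Cpox had means of 536 and 1130 per the authors' deposited table, which missed the threshold (DESeq adjusted p = 0.0596).

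Ccr4, the receptor of CCL17 and CCL22 on skin-homing and type 2 cells, rose from a low level. Its control libraries held 42.9, 52.5 and 76.5 normalised counts (57.3 ± 17.3, SD, n = 3), each far below the dKO mean of 997 per the authors' deposited table. The change was 17.4-fold per the authors' deposited table (DESeq adjusted p = 1.06e-14), and 60 of the 2460 genes called higher had a larger one. Leaving out each control library gave log2 changes of 3.95 to 4.39. The dKO mean has 3 solutions in whole reads, so its libraries are not given and none could be left out. The lowest dKO library would be at 829 normalised counts in some solutions and at 35.5, below every control library, in another.

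Cxcr3, the receptor of the interferon-induced chemokines CXCL9 and CXCL10 on type 1 lymphocytes, had the smallest rise of the peripheral receptors. Its control libraries held 129, 79.8 and 85.0 normalised counts (97.9 ± 26.9, SD, n = 3). Its dKO libraries held 292, 519 and 547 (453 ± 140, SD, n = 3). The groups did not overlap, although the dKO library of size factor 1.156 was well below the other two. The rise was 4.63-fold per the authors' deposited table (DESeq adjusted p = 1.81e-05). Leaving out each library gave log2 changes of 2.05 to 2.46.

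Xcr1 also rose. Its control libraries held 33.2, 48.3 and 43.7 normalised counts (41.7 ± 7.75, SD, n = 3) and its dKO libraries 394, 338 and 374 (369 ± 28.8, SD, n = 3). The groups were far apart and the rise was 8.83-fold per the authors' deposited table (DESeq adjusted p = 5.15e-21). Leaving out each library gave log2 changes of 3.0 to 3.26. Reads per library were recovered in both groups for 3 receptors, Ccr7, Cxcr3 and Xcr1, and in all 3 every dKO library was above every control library. Among the 1701 genes with a mean of 10 to 100 in both groups this held for 9.99%. None of the 3 receptors is in that set, which leaves out genes that rise above 100, so it is not a background for rises of this size.

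Levels of different receptors were compared per kilobase of transcript, taking the longest principal transcript of GENCODE M21. The 10 receptors together went from 2670 to 15867 normalised counts per kb. In control the order was Cxcr6 (802 per kb), Ccr8 (778), Ccr9 (377), Cxcr4 (320), Ccr2 (218), Cxcr3 (56.6), Ccr7 (52.9), Gpr15 (35.6), Ccr4 (20.4) and Xcr1 (9.37). The libraries of Cxcr3 (46.1 to 74.4 per kb) overlapped those of Ccr7 (48.9 to 58.4), and those of Gpr15 (16.3 to 48.3) overlapped those of Ccr4 (15.3 to 27.3), so these neighbours did not differ beyond their spread. On this scale Cxcr6 and Ccr8 led the receptors in wild-type progenitors as well. For the first 5 genes in that order no spread could be given.

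In dKO the order per kb was Cxcr6 (5842), Ccr8 (5751), Ccr2 (1699), Gpr15 (1223), Ccr9 (412), Ccr4 (356), Cxcr3 (262), Ccr7 (163), Xcr1 (82.8) and Cxcr4 (78.4). The libraries of Cxcr3 (169 to 316 per kb) touched those of Ccr7 (154 to 169), though within each library Cxcr3 was the higher. Those of Xcr1 (75.8 to 88.6) overlapped those of Cxcr4 (74.2 to 84.0). Gpr15 moved from place 8 to place 4 and Cxcr4 from place 4 to the last place. Thymus and lymph node receptors made up 28.1% of the summed level per kb in control and 4.11% in dKO, and peripheral receptors 71.5% and 95.4%. The summed level of the thymus and lymph node receptors itself was 750 per kb in control and 653 in dKO, so the smaller share went with the larger total of the other receptors. For the first 6 genes in the dKO order no spread could be given. The order depends in part on the transcript length used. With the length of all annotated exons Ccr8 came before Cxcr6 in dKO, Ccr4 was in place 5, Cxcr3 in place 6 and Ccr9 in place 7. In control that length put Cxcr4 in place 3 and Ccr9 in place 4. With it the shares of the thymus and lymph node receptors were 23.2% and 2.94%.

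**Figure D2:**
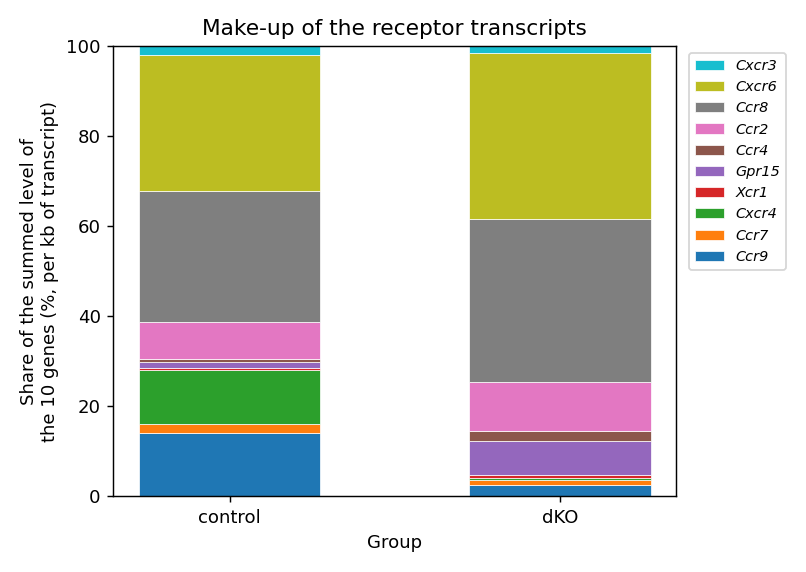
Share (%) of each receptor gene in the summed level of the 10 genes, per kb of transcript, from the group means of control and dKO. Ccr9, Ccr7 and Cxcr4 together take 28.1% of the control column and 4.11% of the dKO column, and Cxcr6 and Ccr8 are the broadest bands in both.

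Several of the receptors are neighbours on mouse chromosome 9, where RefSeq lists Ccr9, Fyco1, Cxcr6, Xcr1, Ccr1, Ccr1l1, Ccr3 and Ccr2 one after another among protein-coding genes. Of these 8 genes, 5 were higher in dKO, 0 were lower and 3 did not pass. Over all tested genes 15.1% were higher and 13.8% lower. Cxcr6, Xcr1 and Ccr2, among the 5, are receptors already counted above. The row was cut at chosen receptors, Ccr9 and Ccr2, so these counts do not test for an excess in this region. Outside the 10 receptors, Fyco1 and Ccr1 were higher and Ccr1l1 and Ccr3 did not pass. The rises at Cxcr6, Xcr1 and Ccr2 had log2 changes of 2.87, 3.14 and 2.96 per the authors' deposited table. Ccr1, an inflammatory CCL3 and CCL5 receptor, rose 5.40-fold per the authors' deposited table, and its libraries held 32.2, 48.3 and 53.4 normalised counts in control and 330, 153 and 241 in dKO. Ccr9 at the one end of the row had a log2 difference of 0.13 per the authors' deposited table and Fyco1 beside it rose by 0.41 (DESeq adjusted p = 0.0225). Cxcr6 lies within Fyco1 on the opposite strand. Ccr3, the eotaxin receptor, had means of 9.75 and 38.0 per the authors' deposited table, which missed the threshold (DESeq adjusted p = 0.0865). Its control reads came almost wholly from the library of size factor 0.952, with 2, 26 and 0 reads in the 3 libraries. Ccr4 and Ccr8 are on the same chromosome outside this row, and Cxcr4, Ccr7, Gpr15 and Cxcr3 are on other chromosomes.

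**Figure D3:**
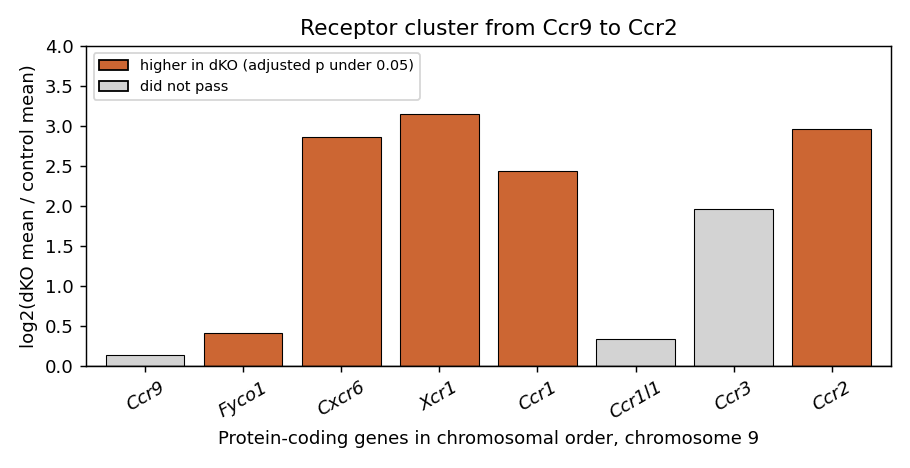
Log2 of the dKO mean over the control mean for 8 consecutive protein-coding genes of chromosome 9 in their order, with genes called higher in orange and genes that did not pass in grey. Cxcr6, Xcr1, Ccr1 and Ccr2 stand above 2.4, while Ccr9 is at 0.13.

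Of 8 other conventional chemokine receptors tested, 5 were higher, 1 was lower and 2 did not pass. The shares to set beside this list and those that follow are 15.1% higher and 13.8% lower over all tested genes. Cx3cr1, the fractalkine receptor, rose 3.29-fold and Ccr10, a skin and mucosal homing receptor for CCL27 and CCL28, rose 11.5-fold from 43.7 to 505 per the authors' deposited table. Ccr6, the CCL20 receptor, fell 12.3-fold per the authors' deposited table (DESeq adjusted p = 0.00212). Its libraries held 31.2, 33.6 and 55.9 normalised counts in control and 5.19, 4.65 and 0 in dKO, without overlap. Cxcr2, the neutrophil receptor, had means of 200 and 209 per the authors' deposited table (DESeq adjusted p = 0.922). Of 4 atypical or receptor-like genes tested, 0 passed in either direction, and Ccrl2, the one with the highest mean, had means of 105 and 62.9 per the authors' deposited table.

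Few ligands of the 10 receptors were detected at more than a low level in these sorted cells. Of 12 tested, 1 was higher, 0 were lower and 11 did not pass, and 5 others were listed at 0 in both groups. The one that rose was Cxcl10, a CXCR3 ligand, from 110 to 451 per the authors' deposited table (DESeq adjusted p = 0.00651). Xcl1, the XCR1 ligand, had 50.8, 69.3 and 72.9 normalised counts in the control libraries and 84.8, 140 and 113 in the dKO libraries. These did not overlap, yet the gene did not pass the authors' DESeq test over all genes (adjusted p = 0.161). Ccl25, the CCR9 ligand made by thymic epithelium, had means of 54.6 and 52.4 per the authors' deposited table. Of 10 other chemokine ligands tested, 4 rose and 6 did not pass. Ccl9 rose from 219 to 990, Ccl3 from 29.98 to 214 and Ccl5 from 90.0 to 653 per the authors' deposited table. CCL3 and CCL5 are ligands of CCR1, whose gene Ccr1 rose as well. The median log2 change per the authors' deposited table was -0.06 for the ligands of the 10 receptors and 1.77 for the other ligands.

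Receptors for lipids and other attractants moved in both directions. Of 15 tested, 7 were higher, 3 were lower and 5 did not pass. Cysltr1, a receptor for cysteinyl leukotrienes, rose from 730 to 3980, 5.46-fold per the authors' deposited table (DESeq adjusted p = 8.85e-80). Gpr183, the oxysterol receptor EBI2, rose 2.82-fold and Gpr18 rose 3.90-fold per the authors' deposited table. S1pr3, a sphingosine 1-phosphate receptor, fell from 921 to 251 and Gpr174, a lysophosphatidylserine receptor, fell from 339 to 140 per the authors' deposited table. Cmklr1, the chemerin receptor, fell from 22.3 to 0.577 per the authors' deposited table. P2ry10 and S1pr2 did not pass, at 724 and 738 for the first and 634 and 626 for the second per the authors' deposited table.

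Most tested genes that carry the signal inward from chemokine receptors passed the test, with changes that were mostly small. Of 26 tested, 18 were higher, 1 was lower and 7 did not pass, with a median log2 change of 0.47 per the authors' deposited table. Tiam1, a Rac exchange factor, rose 5.15-fold from 428 to 2205 per the authors' deposited table (DESeq adjusted p = 3.36e-55). Jak2 rose 2.15-fold and Gnaq 2.03-fold per the authors' deposited table. Pik3cg, the catalytic subunit of the kinase PI3Kγ downstream of these receptors, fell from 5012 to 4077 per the authors' deposited table (DESeq adjusted p = 0.028). Rap1b and Vav1, at means of 5137 and 8366 and of 6912 and 5896 per the authors' deposited table, did not pass. Of 13 genes of receptor desensitisation, 5 were higher, 1 was lower and 7 did not pass. Rgs1 and Rgs14, which shorten G protein signals, rose 2.66-fold and 2.91-fold and Rgs10 fell from 541 to 227 per the authors' deposited table. Adrbk1, the kinase GRK2, did not pass, at 4203 and 3847 per the authors' deposited table.

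Adhesion molecules that act beside homing receptors at the vessel wall also moved in both directions, with 8 of 14 tested higher, 2 lower and 4 that did not pass. Itgb7, the beta chain of the gut-homing integrin α4β7, rose 3.59-fold from 7303 to 26223, and Itgb2, the beta chain of LFA-1, rose 4.01-fold from 2430 to 9737 per the authors' deposited table. Selplg, the P-selectin ligand, rose 2.18-fold and Fut4, a fucosyltransferase that helps make selectin ligands, fell from 273 to 79.6 per the authors' deposited table. Itga4, an alpha chain that can pair with Itgb7, did not pass, at 20025 and 17503 per the authors' deposited table. Over all 102 genes tested in these 8 lists, 48 were higher and 8 lower, against 15.1% and 13.8% of all tested genes. These lists too were chosen with earlier results known, and no share for genes of their level is given.

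**Figure D4:**
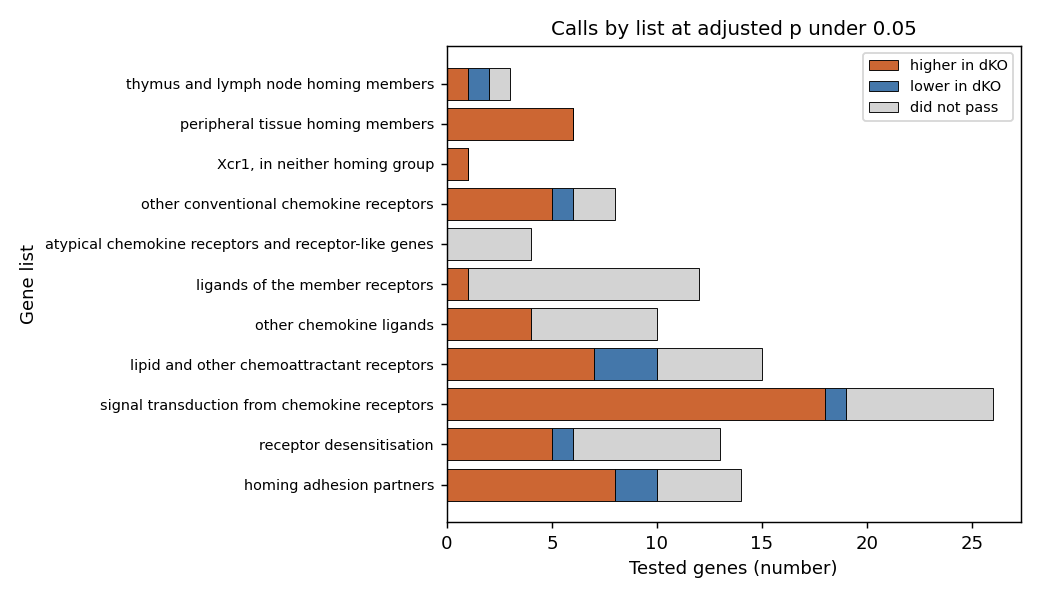
Number of tested genes in each list that were higher in dKO (orange), lower (blue) or did not pass (grey) at the authors' adjusted p under 0.05. All 6 peripheral tissue receptors are higher, 1 of the 3 thymus and lymph node receptors is, and 11 of the 12 ligands of the 10 receptors did not pass.

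The sorted cells were checked against markers of progenitors and of other cells. Of 9 progenitor and gate markers tested, 2 were higher (Kit and Ptprc), 3 were lower (Flt3, Cd24a and Cd4) and 4 did not pass. Kit was abundant in both groups, at 14094 and 19067, and Cd44 had means of 3220 and 2765 per the authors' deposited table. Cd24a fell from 4777 to 2216 and Cd4 from 104 to 34.8 per the authors' deposited table. Il2ra, which encodes the CD25 that the gate excludes, had transcript means of 8417 and 8536, while Cd8a was at 9.51 and 27.2 per the authors' deposited table. Flt3, a marker of the least mature progenitors, fell from 1080 to 327 per the authors' deposited table. Of 8 dendritic cell markers tested other than Xcr1, 1 was higher, 1 was lower and 6 did not pass, with summed levels of 620 and 558 per the authors' deposited table. Clec9a, a defining marker of the dendritic cells that carry XCR1, was listed at 0 for both groups by the authors' deposited table. Batf3 rose from 26.4 to 80.4 and Itgax fell from 285 to 85.0 per the authors' deposited table. Of 8 macrophage and monocyte markers tested, 1 was higher, 3 were lower and 4 did not pass, with a summed level of 1201 in control and 731 in dKO per the authors' deposited table. Among these per the authors' deposited table, Csf1r fell from 632 to 164 and Lyz2 from 301 to 60.5, Adgre1 rose from 53.3 to 278, and Cd14 was listed at 0 in both groups.

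The summed levels of granulocyte and mast cell markers went from 13292 to 4022 per the authors' deposited table. Of 7 tested, 2 were higher (Tpsb2 and Ms4a2) and 2 lower (Mpo and Cpa3), and S100a8 and S100a9 were listed at 0. Most of that sum was Mpo, from 7310 to 1457, and Cpa3, from 5824 to 2147, per the authors' deposited table. Tpsb2 rose from 19.1 to 217 and Ms4a2 from 31.1 to 110 per the authors' deposited table. The summed levels of B cell markers went from 136 to 46.1 per the authors' deposited table, with 2 of 5 tested lower. Pax5 and Ms4a1 were listed at 0 for both groups by the authors' deposited table. The summed levels of thymic epithelial and stromal markers went from 9778 to 2657 per the authors' deposited table. Most of that sum was Pdgfrb, the marker that fell of 9 tested, while Foxn1 was at 4.2 and 2.02 and Pdgfra at 0. Endothelial markers summed to 2999 and 2281 per the authors' deposited table, with 1 of 5 higher, 2 lower and Cdh5 listed at 0 in both groups. Most of that sum was Pecam1, at 2639 and 2063 per the authors' deposited table. Erythroid markers summed to 47.6 and 38.0 per the authors' deposited table, with 0 of 3 tested called. The part of other cells, and of the YFP gate, in the receptor differences was not tested.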

How the data were processed

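The 6 libraries, 3 per group, were grouped by their labels. Per the labels' protocols, RNA of sorted cells was amplified with a SMARTer low-input kit, so reads are not independent molecules and floors cover counting error only. Of software, the submitters' processing notes name TopHat2 2.0.14, bcl2fastq 1.8.4 and DESeq version 2, and they name mm9 as the build. How reads were assigned to genes is not given in the sources used here. Per the file headers, the signal columns hold a mean normalised count per group made by the authors. The fold column holds the deposited ratio of dKO over control. The p-values and adjusted p-values are deposited ones from the authors' test. Its log2 column was not used, since 729 cells hold an error, and log2 ratios of the group means were taken instead. Of 22609 genes, 16241 were tested by the authors. A count test on single libraries had been foreseen only if the table held them, which it does not.

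Means were resolved into whole reads per library in Python 3.11.15 (numpy 2.4.6), and values per library are given where 1 solution exists. For the dKO mean of Ccr4, which has 3 solutions, only the lowest library under each is described. In a trial on made-up reads every single solution was right. For a group at 0 the floor was 3 reads in all, which is a mean of 1.21 (control) or 0.963 (dKO). All receptors are named. Of each other list, the 3 called genes with the smallest adjusted p in each direction and the 2 of highest mean among the rest could be named, and all markers. Tcf3, Tcf12 and genes overlapping or neighbouring a receptor were named for that reason. The receptors and lists were chosen with earlier results of these data known. Alternatives were other thresholds, a filter on low means, Bonferroni adjustment, other scalings, a pseudocount, left-out libraries and, chosen after seeing the data, another transcript length. Promoters came from RefSeq (GRCm38.p6) and transcript lengths from GENCODE M21. No coordinates were converted between builds. Some genes that the rule takes are left out of the text and not reported here.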

Additional observations from a re-analysis of the deposited data

How the results depend on the processing

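The counts of 8 receptors higher and 1 lower were the same at adjusted p under 0.01 and 0.10, with a 2-fold minimum, with Bonferroni adjustment, and when genes with a mean under 10 were left out. The other lists had 56 calls, and 52 at adjusted p under 0.01. Scaling to the group total shifted all log2 changes by -0.08, taking Ccr9 from 0.13 to 0.04, and no receptor changed sign under any scaling, pseudocount or left-out library. Over the 6 receptors with recovered reads, leaving out a library gave log2 changes from 4.75 to 5.38 for Gpr15, the widest range. For Ccr2, Ccr8, Ccr9 and Cxcr6 no library could be left out, since only group means are known. For Ccr4 and Gpr15 only control libraries could be left out, and for Cxcr4 only dKO libraries. No paired analysis was possible because the table holds group means, and recovered libraries carry no replicate numbers.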
